A study of Mus musculus with 7 samples.

Results

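The genes described here are 40 genes that a cell uses to copy its DNA and to divide, out of 23420 rows in the deposited expression table. They were taken by name, as a fixed list of replication and mitosis genes. This list, like the other gene lists used below, was chosen with earlier results of these data known. For reading S phase against G2 and mitosis they were split by known role into 17 S phase genes, which act mainly in or just before DNA synthesis, and 23 G2/M genes, which act mainly after it. The material was mouse heart, labelled whole heart in the sample sheet and cardiac ventricle in the extraction protocol, and bulk total RNA was sequenced from 7 libraries. The control group held 4 libraries from Ctla4+/+;Pdcd1-/- mice without disease. The ICI-myocarditis group held 3 libraries from Ctla4+/-;Pdcd1-/- mice, a genetic model of the heart inflammation that immune checkpoint inhibitors can cause. All 7 mice therefore lacked Pdcd1, the gene of the PD-1 receptor, all were labelled 3 to 6 weeks old and untreated, and the groups differed in 1 copy of Ctla4. The labels name no promoter or Cre driver that would limit either allele to some cells. The labels tie no library to a litter or day, so p-values here measure the spread between these libraries.

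A cell enters the division cycle when cyclin E activates its kinase and E2F factors switch on the genes of DNA synthesis. Origins of replication are loaded with the MCM helicase by CDC6 and CDT1, and the forks then need the clamp PCNA and a supply of deoxynucleotides. After replication, cyclins A and B activate CDK1, the Aurora and Polo kinases build the spindle, and the anaphase-promoting complex ends mitosis by marking cyclin B and other proteins for destruction. Heart muscle cells leave this cycle in the first weeks after birth, whereas activated lymphocytes and many tissue macrophages can divide. Genes of G2 and mitosis commonly carry 2 promoter elements, the cell cycle homology region (CHR) and CCAAT boxes, and S phase genes often carry E2F sites.

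Upstream promoter sequence is shown for members of both phases, because motif matches are counted by phase further on, beside the size of each gene's change. Each run is 120 bases, 5′ to 3′ on the gene's strand, taken upstream of the RefSeq start in GRCm38.p6. Where the bases before that start lay inside the gene's RefSeq span, the run was moved up past them. This skipped 71 bases for Mki67, 21 for Cenpf and 10 for Top2a. None of the runs overlaps an annotated exon. Capitals mark E2F matches (TTCCCGC or TTGGCGC), CHR matches (TTTGAA or TTCGAA) and CCAAT boxes (CCAAT), each searched on both strands. The S phase examples are Mcm6, a helicase subunit (chr1:128359706-128359825, minus strand), and Rrm1, the large subunit of ribonucleotide reductase (chr7:102441575-102441694, plus strand).
Mcm6: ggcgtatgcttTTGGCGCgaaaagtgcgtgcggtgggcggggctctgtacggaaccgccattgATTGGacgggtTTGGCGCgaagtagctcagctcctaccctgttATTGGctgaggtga
Rrm1: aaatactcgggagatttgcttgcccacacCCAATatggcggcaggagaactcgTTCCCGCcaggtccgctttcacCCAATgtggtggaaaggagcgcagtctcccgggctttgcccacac
Both hold E2F matches and CCAAT boxes and no CHR match.

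The G2/M examples are Top2a, topoisomerase II alpha (chr11:99024200-99024319, minus strand), Kif11, a spindle motor (chr19:37376262-37376381, plus strand), Mki67, the gene of the Ki-67 antigen (chr7:135716451-135716570, minus strand), Ccnb2, cyclin B2 (chr9:70421555-70421674, minus strand), and Cenpf, an outer kinetochore protein (chr1:189688108-189688227, minus strand).
Top2a: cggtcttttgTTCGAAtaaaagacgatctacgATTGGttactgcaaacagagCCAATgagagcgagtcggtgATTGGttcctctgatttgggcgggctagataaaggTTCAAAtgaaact
Kif11: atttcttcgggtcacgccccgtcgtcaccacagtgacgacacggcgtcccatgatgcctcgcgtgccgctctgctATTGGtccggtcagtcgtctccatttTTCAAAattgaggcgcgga
Mki67: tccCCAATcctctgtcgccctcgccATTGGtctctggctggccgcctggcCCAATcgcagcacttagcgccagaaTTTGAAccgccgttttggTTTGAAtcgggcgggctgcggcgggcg
Ccnb2: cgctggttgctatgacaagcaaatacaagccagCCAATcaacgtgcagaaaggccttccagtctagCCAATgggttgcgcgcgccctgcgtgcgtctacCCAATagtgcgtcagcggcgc
Cenpf: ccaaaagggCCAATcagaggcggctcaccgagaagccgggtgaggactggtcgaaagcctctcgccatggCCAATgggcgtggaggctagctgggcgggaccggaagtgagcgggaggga
CCAAT boxes stand in all 5 runs and a CHR match in those of Top2a, Kif11 and Mki67. The CHR matches of Ccnb2 and Cenpf closest to the start lie 4 and 2 bases past it, outside the runs shown. An E2F match of Mki67, which begins 67 bases before the start, lies in the skipped bases and is not shown either.

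The 7 libraries held between 20931730 and 39037176 reads in genes. Control 2 stood apart from the other controls and is given separately below. It had a summed normalized count of 1353 over 8 T cell markers (among them Cd3e and Lck), against 136 to 261 in the other controls and 5235 to 8221 in ICI-myocarditis, where all 8 markers passed the test. All 8 macrophage and monocyte markers passed it too, with sums of 13151 to 17545 in controls and 54339 to 83411 in disease. Of 6 cardiomyocyte markers limma called 0, with 2 at an unadjusted p under 0.05, 0 by edgeR and 3 by DESeq2, and their sums were 1142186 to 2205426 in controls and 698275 to 1202281 in disease. Among the other lists, 4 of 6 endothelial genes fell, 2 of 6 fibroblast genes rose, and 1 of 4 tested B cell, 1 of 3 neutrophil and 0 of 4 erythroid precursor genes rose. The erythroid list had 1 gene at an unadjusted p under 0.05 and 0 calls by edgeR or DESeq2. Of the thymocyte genes only Themis, which mature T cells also express, passed the low-count filter. Rag1, Dntt and Ptcra lay between 0 and 6.70 in every library, and Rag2 between 1.25 and 10.05. Ctla4 had normalized counts of 29.2 to 113 in controls and 251 to 373 in disease, and Pdcd1 2.50 to 244 and 1096 to 1481. Neither gene-level value checks the genotype, since it was not known here which exons the alleles lack.

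Genes of replication and mitosis were higher in the ICI-myocarditis hearts, with the larger median fold change in the mitotic genes. All 40 passed the filter on low values, 32 rose, 0 fell and 8 did not pass the test, where 11.7% of the 15258 genes tested rose and 4.00% fell. The 3 disease libraries lay above all 4 controls for 37 of the 40, against 17.3% of all genes. The median log2 fold change was 1.68 over the 40 genes and -0.02 over all genes tested. Fold changes are on the log2(normalized count + 1) scale, and a call is an adjusted p under 0.05 in limma over all genes tested. The tissue was not sorted, so more dividing cells and more RNA per dividing cell cannot be told apart.

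The phases differed in how many genes passed and in their medians, a description with no test of its own. Of the 23 G2/M genes 21 rose, and their log2 fold changes ran from -0.04 to 3.00 around a median of 2.07. Of the 17 S phase genes 11 rose, with values of 0.33 to 2.19 and a median of 1.35. Only Ttk and Cenpf of the G2/M genes did not pass, against Ccne2, Mcm4, Mcm7, Pcna, Rrm1 and Tyms of the S phase genes. Of these 8, Mcm4, Mcm7, Pcna, Rrm1, Tyms and Ttk had disease libraries above every control all the same. The number called changed with the library left out, in fits that also have fewer samples. It was 19 of 40 without control 1 (8.30% of all genes rose), 15 without control 3 (7.35%) and 16 without ICI-myocarditis 2 (7.77%). It was 16 without ICI-myocarditis 3 (5.99%), 22 without ICI-myocarditis 1 (9.12%) and 37 without control 2 (14.8%). For S phase genes it was 4 without control 1, 3 each without control 3 and ICI-myocarditis 2 or 3, and 7 without ICI-myocarditis 1, and for G2/M genes 12 without control 3 and 13 without ICI-myocarditis 2 or 3. Of the 40 members edgeR called 25 (10.1% of all genes rose), DESeq2 35 (14.2%), limma-voom with library quality weights 37 (16.3%) and limma after scaling by library totals 25 (10.9%).

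**Figure D1:**
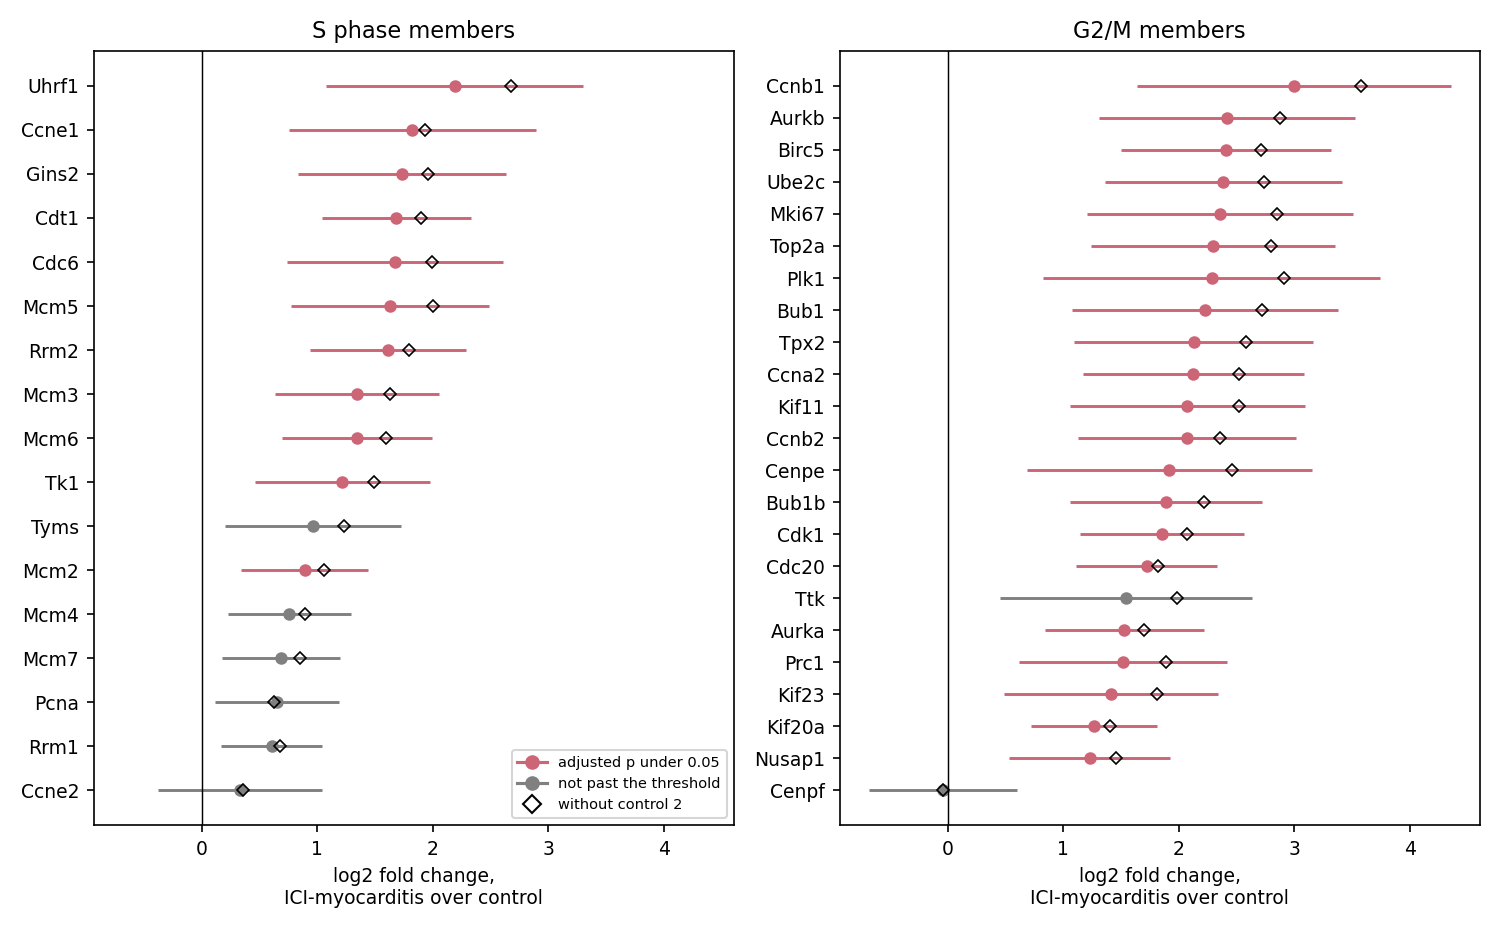
Log2 fold change (ICI-myocarditis over control, horizontal axis) of each S phase member (left) and G2/M member (right), with 95% confidence intervals from limma. Red marks an adjusted p under 0.05, grey a gene that did not pass, and open diamonds the value without control 2. Ccnb1 is the highest at 3.00, and Cenpf lies at -0.04.

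Of the cyclins that open S phase, 1 of 2 rose. Ccne1, cyclin E1, had normalized counts of 17.1, 44.4, 27.9 and 68.8 in controls 1 to 4 and 171, 97.8 and 119 in ICI-myocarditis 1 to 3. The groups did not overlap, and control 4, not control 2, was the highest control. The log2 fold change was 1.82 ± 0.47 (SE; limma adjusted p = 0.0313), and the call was lost when control 1, control 3 or any disease library was left out, with adjusted p of 0.0614 to 0.104. Ccne2, cyclin E2, had 65.5, 99.9, 117 and 104 in controls and 158, 119 and 90.2 in disease. Here the groups overlapped, and the 95% interval of the log2 fold change ran from -0.38 to 1.04.

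The licensing and helicase genes gave 7 calls among 9 members. Cdt1, which loads the helicase with Cdc6, had 80.7, 142, 78.2 and 75.1 normalized counts in controls and 269, 294 and 319 in disease. Every disease library was well above control 2, the highest control, and the log2 fold change was 1.68 ± 0.29 (limma adjusted p = 0.0062). Mcm6 had 422, 852, 514 and 358 in controls and 1199, 1255 and 1430 in disease, a log2 fold change of 1.35 ± 0.29 (limma adjusted p = 0.0141, and 0.0589 without ICI-myocarditis 3). The 6 MCM genes encode the subunits of 1 hexamer and did not change to the same degree. Mcm5, Mcm3 and Mcm6 had log2 fold changes of 1.63, 1.35 and 1.35, Mcm2 had 0.89, and Mcm4 and Mcm7, which did not pass, had 0.76 and 0.69. Mcm7 was close between disease libraries, at 665, 650 and 630, while its controls ran from 329 to 566, and its exons share bases with those of Ap4m1 and Cops6 on the other strand. Cdc6 had controls of 21.3 to 71.5 and disease libraries of 102 to 129. Gins2, a subunit of the GINS complex that joins the active helicase, had controls of 23.2 to 61.7 and disease libraries of 92.5 to 177. It overlaps 2758 exon bases of Gse1 on the opposite strand, and 11 members in all share exon bases with a gene on the opposite strand, while the strand setting of the counting is not given in the sources used here. With 1 library left out, the log2 fold change ran from 1.17 to 1.63 for Mcm3 and from 1.47 to 2.01 for Mcm5. Some calls were lost in these fits, which also have fewer samples. Those on Mcm3 and Mcm5 were lost without control 1, control 3, ICI-myocarditis 2 or ICI-myocarditis 3 (adjusted p up to 0.0818 and 0.0797), that on Cdc6 without these or ICI-myocarditis 1 (up to 0.0894), that on Gins2 without control 3, ICI-myocarditis 1 or ICI-myocarditis 2 (up to 0.0754), and that on Mcm2 without any library other than control 2 or ICI-myocarditis 1 (up to 0.133).

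Pcna, the sliding clamp of the replication fork and also a repair factor, had 727, 882, 964 and 1210 normalized counts in controls and 1921, 1236 and 1313 in disease. The lowest disease library lay just above the highest control, which was control 4, and the log2 fold change of 0.65 (95% interval 0.12 to 1.19) did not pass (limma adjusted p = 0.0984). Per kilobase of exon Pcna had the highest mean level of the 40 genes in both groups, 623 in controls and 982 in disease. Uhrf1, which takes part in copying DNA methylation onto the new strand, had 92.8, 303, 60.3 and 83.8 in controls and 392, 602 and 537 in disease. Its log2 fold change of 2.19 ± 0.49 was the largest among S phase members (limma adjusted p = 0.0179), and it did not pass without control 1, control 3, ICI-myocarditis 2 or ICI-myocarditis 3, with adjusted p up to 0.0659.

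Among the 4 genes of nucleotide supply, 2 rose. The subunits of ribonucleotide reductase, which makes deoxynucleotides, differed in size of change. Rrm2, the subunit made in S phase, had 88.7, 215, 162 and 153 normalized counts in controls and 482, 452 and 426 in disease, a log2 fold change of 1.61 ± 0.30 (limma adjusted p = 0.00849). Rrm1, the longer-lived subunit, had 469, 694, 663 and 597 in controls and 910, 867 and 964 in disease. Its groups did not overlap either, but the log2 fold change was 0.61 ± 0.19 (limma adjusted p = 0.065). Tk1, thymidine kinase, had controls of 98.8 to 294 and disease libraries of 374 to 406, a log2 fold change of 1.22, and its call was lost when any library other than control 2 was left out, with adjusted p up to 0.11. Tyms, thymidylate synthase, had controls of 73.6 to 190 and disease libraries of 204 to 222, with a log2 fold change of 0.96 that did not pass (limma adjusted p = 0.0879). Control 2 at 190 was the Tyms value closest to disease, and without it the adjusted p was 0.00924.

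The mitotic cyclins and their kinase all rose, 4 of 4. Ccnb1, cyclin B1, had 11.1, 92.5, 23.4 and 21.3 normalized counts in controls and 235, 228 and 206 in disease. Control 2 was several times the other controls and still under the lowest disease library, and the log2 fold change was 3.00 ± 0.60 (limma adjusted p = 0.0112). Ccnb2 had 33.3, 94.98, 70.3 and 32.5 in controls and 259, 227 and 186 in disease, a log2 fold change of 2.07 ± 0.42 (limma adjusted p = 0.0113). Ccna2, cyclin A2, had 47.4, 189, 74.8 and 67.6 in controls and 350, 396 and 343 in disease, a log2 fold change of 2.13 ± 0.42 (limma adjusted p = 0.0108). Cdk1 had 47.4, 105, 60.3 and 62.6 in controls and 259, 259 and 208 in disease, a log2 fold change of 1.85 ± 0.31 (limma adjusted p = 0.0062). All 4 kept their calls in each of the 18 alternative fits. Pseudogenes are named for Ccnb1 and Ccnb2, and also for Pcna and Tyms, so reads of these genes could be split between copies.

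Of 6 mitotic kinases 5 rose. Aurkb, the kinase of the chromosomal passenger complex, had 26.2, 112, 25.7 and 42.5 normalized counts in controls and 233, 234 and 227 in disease. The disease libraries were nearly equal, and the log2 fold change was 2.42 ± 0.49 (limma adjusted p = 0.0117). Aurka, the spindle pole kinase, had 43.4, 76.5, 49.1 and 50.05 in controls and 184, 162 and 128 in disease, a log2 fold change of 1.53 ± 0.31 (limma adjusted p = 0.0108). Plk1, the Polo kinase, had 21.2, 109, 25.7 and 11.3 in controls and 125, 151 and 160.5 in disease. Control 2 lay close under the disease libraries and was 5.604 times the mean of the other controls, the highest such ratio of the 40 genes. Plk1 passed with all libraries (log2 fold change 2.29 ± 0.65, limma adjusted p = 0.0425) and did not when any library other than control 2 was left out, with adjusted p up to 0.137. Of the spindle checkpoint kinases, Bub1b (1.89 ± 0.37, limma adjusted p = 0.01) and Bub1 (2.23 ± 0.51, limma adjusted p = 0.019) rose on the log2 scale. The call on Bub1 was lost without control 1, control 3 or any disease library, with adjusted p up to 0.0628. Ttk had 23.2, 74.0, 17.9 and 22.5 in controls and 81.9, 91.3 and 85.6 in disease, so that control 2 almost reached the disease level. Its log2 fold change was 1.54 (95% interval 0.45 to 2.63, limma adjusted p = 0.0616), and 1.98 without control 2 (adjusted p = 0.00191).

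All 6 motor, spindle and midzone genes rose. Kif11 had 90.7, 342, 122 and 83.8 normalized counts in controls and 653, 557 and 500 in disease, a log2 fold change of 2.08 ± 0.45 (limma adjusted p = 0.0152, and 0.0502 without control 3). Tpx2, which activates Aurora A at the spindle, had 62.5, 213, 58.1 and 60.1 in controls and 288, 409 and 418 in disease. The other 3 controls were nearly equal and control 2 was far above them. Kif20a, a motor of the midzone, had 113, 152, 99.4 and 101 in controls and 303, 269 and 264 in disease. Its control 2 was closer to the other controls, and it had a smaller log2 fold change of 1.27 ± 0.24 with a lower adjusted p of 0.00897 in limma. Kif20a shares 977 exon bases with Cdc23 on the opposite strand, whose own log2 fold change was -0.39. Prc1, Kif23 and Nusap1, which bundle or bind spindle microtubules, had log2 fold changes of 1.52, 1.42 and 1.23. The calls on Kif23 and Prc1 were lost without any library other than control 2 (adjusted p up to 0.134 and 0.108), that on Nusap1 without control 1, control 3 or any disease library (up to 0.0923), and that on Tpx2 without control 3, ICI-myocarditis 2 or ICI-myocarditis 3 (up to 0.0611).

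The 2 large kinetochore proteins differed. Cenpe, a kinetochore motor, had 81.7, 295, 60.3 and 57.6 normalized counts in controls and 247, 459 and 432 in disease. Control 2 lay above ICI-myocarditis 1, so the groups overlapped, and the log2 fold change of 1.92 ± 0.55 (limma adjusted p = 0.044) was called with all libraries and without control 2 only, the other left-out fits giving adjusted p up to 0.148. Cenpf had 1145, 1263, 1363 and 1241 in controls and 1170, 1955 and 785 in disease. The controls were close together, and the disease group held both the highest and the lowest library. The log2 fold change was -0.04 (95% interval -0.68 to 0.60, limma adjusted p = 0.942). Per kilobase, Cenpf was at 113 in controls, above the other 22 G2/M genes, the next being Top2a at 78.8, while in disease Cenpf was at 117 and Top2a at 314.

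Both genes tied to the anaphase-promoting complex rose. Cdc20, its mitotic activator, had 86.7, 94.98, 72.6 and 58.8 normalized counts in controls and 307, 251 and 219 in disease. Its control 2 was only 1.31 times the mean of the other controls, and its adjusted p of 0.00476 in limma was the lowest of the 40 genes, at a log2 fold change of 1.72 ± 0.27. Ube2c, the ubiquitin-conjugating enzyme that works with the complex, had 36.3, 74.0, 16.7 and 32.5 in controls and 182, 212 and 170 in disease, a log2 fold change of 2.39 ± 0.45 (limma adjusted p = 0.00918). It shares 144 exon bases with the troponin gene Tnnc2 on the opposite strand.

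The last 3 genes, of chromosome structure and the passenger complex, also rose. Top2a had 202, 936, 267 and 240 normalized counts in controls and 1585, 1746 and 1590 in disease. The disease libraries were alike, and control 2 was 3.96 times the mean of the other controls. The log2 fold change was 2.30 ± 0.47 (limma adjusted p = 0.0118). Mki67 had 481, 1506, 395 and 287 in controls and 1844, 3171 and 3551 in disease. Control 2 was close to ICI-myocarditis 1, which was the lowest disease library by a wide margin. The log2 fold change was 2.36 ± 0.51 (limma adjusted p = 0.0152, and 0.0502, 0.0632 and 0.0527 without ICI-myocarditis 2, ICI-myocarditis 3 and control 3). Birc5, survivin, had 19.2, 62.9, 27.9 and 35.0 in controls and 167, 202 and 173 in disease, a log2 fold change of 2.41 ± 0.40 (limma adjusted p = 0.00599).

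**Figure D2:**
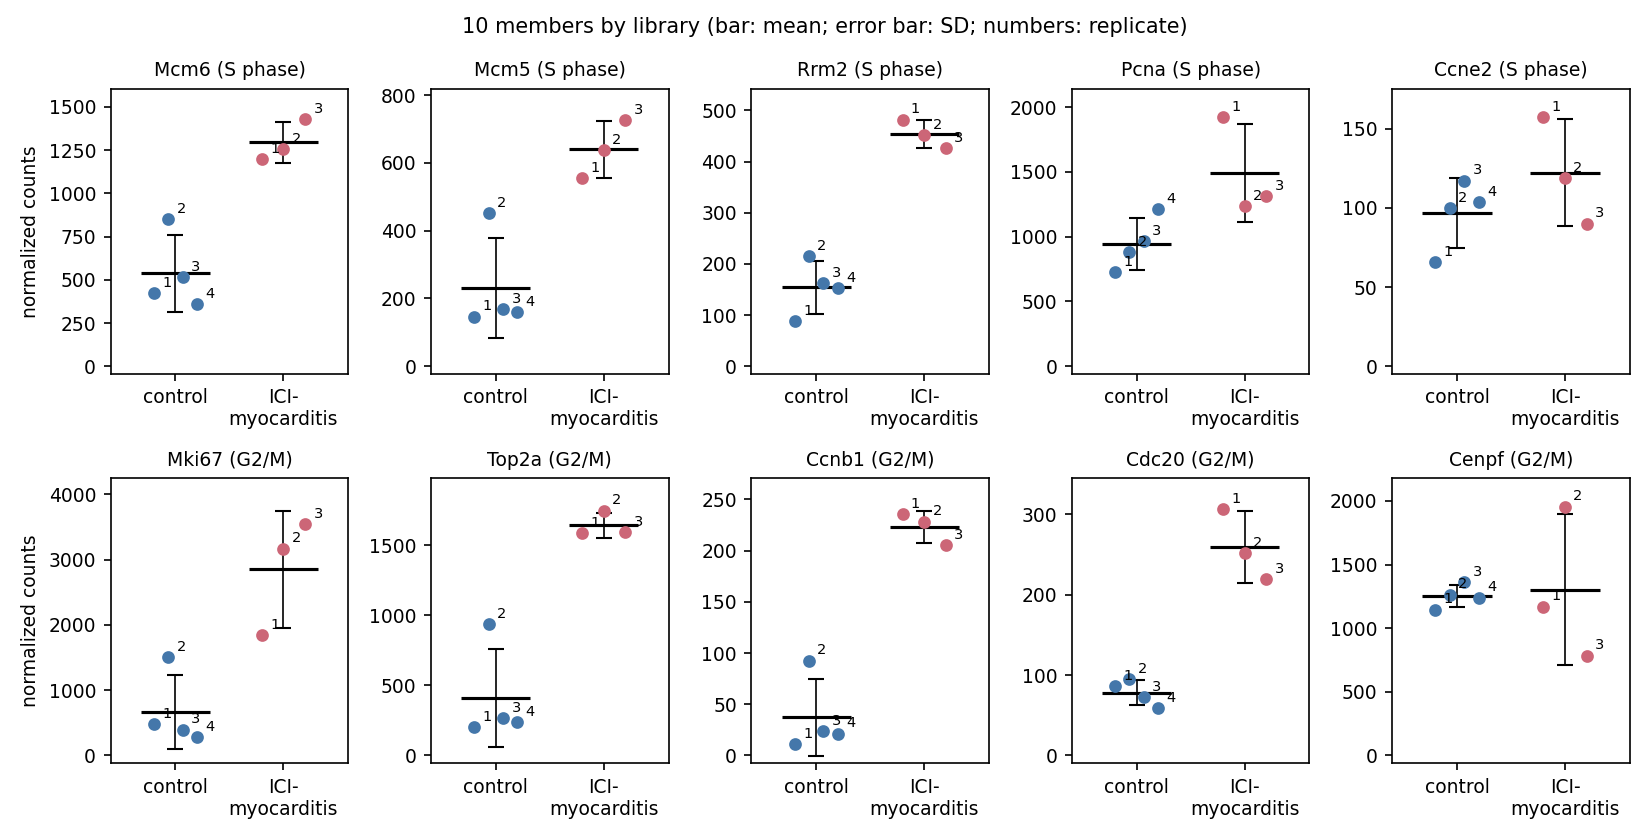
Normalized counts (vertical axis, linear) of 5 S phase members (top) and 5 G2/M members (bottom) in each library, numbered by replicate, with the group mean and SD. In Mki67, Top2a and Ccnb1 control 2 lies between the other controls and the disease libraries, and in Ccne2 and Cenpf the groups overlap.

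The level of the members in each library showed the same 3 tiers in both phases. The median log2 difference from the control mean over the G2/M genes was -0.40, 1.19, -0.20 and -0.34 in controls 1 to 4 and 1.96, 2.10 and 2.05 in ICI-myocarditis 1 to 3. Over the S phase genes it was -0.29, 0.64, -0.02 and -0.26 in controls and 1.24, 1.31 and 1.25 in disease. In both phases the disease libraries lay close together, and control 2 lay between them and the other controls. Control 2 was the highest control in 36 of 40 members, 22 of 23 G2/M and 14 of 17 S phase genes, and its median ratio to the mean of the other controls was 2.98 for G2/M and 1.82 for S phase genes. Its T cell, macrophage and monocyte, and neutrophil marker sums were also the highest of the controls, and its cardiomyocyte marker sum the lowest. Its endothelial sum was the highest of all libraries, at 64043 against 25430 to 55028 in the other controls and 15952 to 23489 in disease. Its fibroblast sum was 35006, within the controls' 34104 to 51752 and below the 63416 to 124640 of disease. The part of these cells in the members' levels was not tested. Without control 2 the median log2 fold changes were 2.46 for G2/M and 1.595 for S phase genes, 37 of 40 rose (14.8% of all genes), and all 32 calls made with it were among them.

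The level of the G2/M genes relative to the S phase genes was higher in disease. The mean log2 level of the G2/M genes minus that of the S phase genes was -1.10, -0.60, -1.26 and -1.29 in controls and -0.49, -0.28 and -0.45 in disease. The groups did not overlap, and control 2 was the control nearest to disease. The difference of group means was 0.65, with a range of 0.58 to 0.81 when single libraries were left out. This value was given no test, since the genes were chosen as a list. The disease libraries differed from each other gene by gene. ICI-myocarditis 2 was the highest of the 3 in 13 of 23 G2/M genes, and ICI-myocarditis 1 and 3 were each the highest in 7 of 17 S phase genes.

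**Figure D3:**
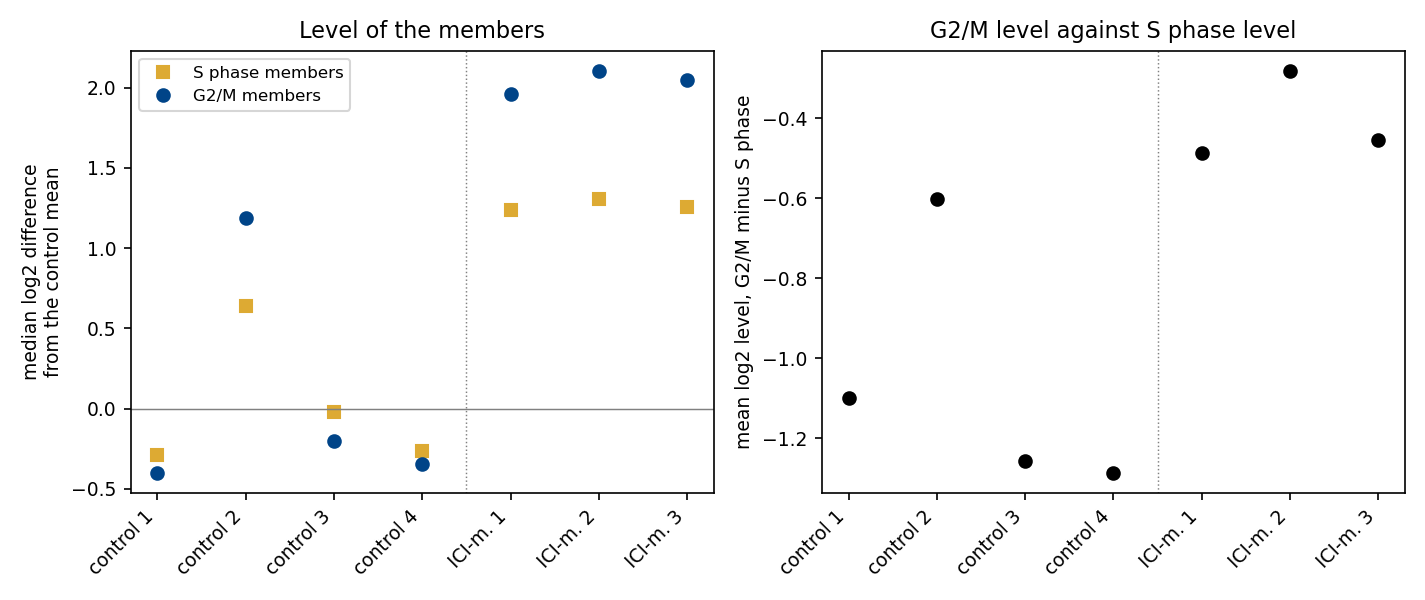
Left: median log2 difference from the control mean over S phase members (squares) and G2/M members (circles) in each library. Right: mean log2 level of G2/M members minus that of S phase members. Control 2 lies between the other controls and the 3 disease libraries in both phases, and the right-hand value is -0.60 there against -0.49 to -0.28 in disease.

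Other genes of the division cycle were read from 9 lists of 172 genes in all, none of them a member. Of these, 57 rose and 1 fell, and the median log2 fold change was 0.67, where 11.7% of all genes rose and 4.00% fell. Of the kinetochore, spindle and cytokinesis genes 29 of 39 rose, with a median of 1.87, and edgeR called 16. Nek2, a centrosome kinase, had 26.2, 44.4, 15.6 and 17.5 normalized counts in controls and 130, 148 and 132 in disease, a log2 fold change of 2.47 (limma adjusted p = 0.00536). Racgap1, a subunit of the midzone complex that holds Kif23, and the motor gene Kif18b rose by 2.03 and 1.94 on the log2 scale. Of the replication origin and fork genes 6 of 39 rose, with a median of 0.45. That share is near the 11.7% of all genes, and the difference between the lists was not tested. By other measures the list lay further from all genes. In 15 of the 39 every disease library lay above every control, against 17.3% of all genes. Without control 2, 15 of the 39 were called, where 14.8% of all genes rose. Lig1, which joins Okazaki fragments, had 170, 280, 154 and 164 in controls and 392, 578 and 581 in disease, a log2 fold change of 1.44 (limma adjusted p = 0.00904). Fen1, the flap nuclease, and Mcm10, a helicase partner, rose by 0.98 and 2.26, and both calls were lost without control 1, control 3, ICI-myocarditis 2 or ICI-myocarditis 3 (adjusted p up to 0.0865 and 0.0746).

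Checkpoint and recombination genes gave 8 calls of 19 (median 0.80) and 3 with edgeR, led by Brca1 (2.12), Clspn (2.66), which carries the checkpoint signal at forks, and Fanca (1.90). All 3 calls were lost without ICI-myocarditis 2, ICI-myocarditis 3 or control 3, and those on Brca1 and Fanca also without control 1, with adjusted p up to 0.0729, 0.0728 and 0.0704. Condensin and cohesin genes gave 5 calls of 15 (median 0.36) and 3 with edgeR. Cdca5, sororin, which holds sister chromatids together, had 11.1, 14.8, 15.6 and 11.3 normalized counts in controls and 104, 87.0 and 101 in disease. Its controls were close together, control 2 included, and the log2 fold change was 2.80 (limma adjusted p = 0.00285). Ncapg2 and Smc2, condensin subunits, rose by 1.54 and 1.16 on the log2 scale. Ncapg2 was lost without ICI-myocarditis 3 (adjusted p = 0.0618), and Smc2 without control 1, control 3 or any disease library (adjusted p up to 0.0916).

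Among transcription factors and pocket proteins of the cycle 6 of 19 rose (median 0.37). E2f1, an activator of S phase genes, had 76.6, 130, 61.4 and 51.3 normalized counts in controls and 224, 309 and 267 in disease, a log2 fold change of 1.81 (limma adjusted p = 0.00902). E2f2, another activator, and E2f8, a repressor of the family, rose by 2.38 and 2.02, and E2f8 had an adjusted p of 0.0536 without ICI-myocarditis 3. Of the G1 cyclins, their kinases and CDC25 phosphatases 2 of 9 rose (median 0.16). Cdk6, a kinase of G1, had 588, 687, 517 and 530.5 in controls and 1140, 1270 and 1458 in disease, a log2 fold change of 1.15 (limma adjusted p = 0.00535). Cdc25c, a phosphatase that activates Cdk1, had 2.02, 14.8, 0 and 5.005 in controls and 33.8, 47.8 and 39.7 in disease, and passed (limma adjusted p = 0.0276) except without control 1 or any disease library, with adjusted p up to 0.0936. Cdc25b, another phosphatase of the family, had a log2 fold change of 0.75 that did not pass (limma adjusted p = 0.141, and 0.0158 without control 2).

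The last 3 lists hold genes that restrain the cycle or end mitosis, and their small counts are to be read beside the 11.7% of all genes that rose and 4.00% that fell. Of 7 CDK inhibitors 1 fell and none rose in limma, with a median log2 fold change of 0.58. In 4 the unadjusted p in limma was under 0.05, and edgeR, DESeq2 and limma-voom called 1, 2 and 4. Cdkn1c, the inhibitor p57, had 1652, 1716, 1147 and 1015 normalized counts in controls and 410, 438 and 265 in disease, a log2 fold change of -1.89 (limma adjusted p = 0.00383). Cdkn2a and Cdkn2b, which encode INK4 inhibitors, had log2 fold changes of 1.67 and 1.28 that did not pass (limma adjusted p = 0.0729 and 0.0632). Both passed without control 2 (limma adjusted p = 0.0178 and 0.0187). Of 10 p53 targets Phlda3 passed, at a log2 fold change of 0.84 (limma adjusted p = 0.0147), and lost the call without control 3, ICI-myocarditis 1 or ICI-myocarditis 3, with adjusted p up to 0.0598. Trp53inp1 and Bax, also targets of p53, had log2 fold changes of 0.69 and 0.53 that did not pass (limma adjusted p = 0.0531 and 0.0923). Without control 2 Trp53inp1 passed (limma adjusted p = 0.0488). The genes of the anaphase-promoting complex and of proteins that work with or on it gave 0 calls of 15 in limma. In 1 the unadjusted p was under 0.05, with 0 calls by edgeR and DESeq2 and 1 by limma-voom. Fbxo5, an inhibitor of the complex, had 30.2, 121, 58.1 and 23.8 in controls and 122, 131 and 134 in disease, with control 2 close under the disease level (limma adjusted p = 0.0986, and 0.00705 without control 2). Cdc23 and Anapc7, subunits of the complex, had log2 fold changes of -0.39 and -0.33 that did not pass (limma adjusted p = 0.203 and 0.27). The median of that list was -0.07.

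The companion counts also changed with the library left out, in fits that have fewer samples. Of the 172 genes 58 were called in all, and 29, 16 and 13 without ICI-myocarditis 1, 2 and 3, 22 without control 1, 17 without control 3 and 86 without control 2. The left-out counts include 1 to 3 genes that fell. The share of all genes that rose moved as well, from 11.7% to 9.12%, 7.77% and 5.99% without ICI-myocarditis 1, 2 and 3. It was 8.30% without control 1, 7.35% without control 3 and 14.8% without control 2. Whether any list lost or gained more calls than all genes did was not tested. Kinetochore, spindle and cytokinesis genes gave 7 calls without ICI-myocarditis 2 or 3, 8 without control 3, 10 without control 1 and 11 without ICI-myocarditis 1. Replication origin and fork genes gave 1 call in the fits without control 1, control 3 or ICI-myocarditis 2 or 3, and 15 without control 2. Checkpoint and recombination genes gave 0 calls without control 3 or ICI-myocarditis 2 or 3, 1 without control 1, 3 without ICI-myocarditis 1, 4 without control 4 and 11 without control 2. In the same fits condensin and cohesin genes gave 1 to 7 calls, transcription factors and pocket proteins 2 to 9, G1 genes 1 to 3, CDK inhibitors 1 to 3 and p53 targets 0 to 2, with the highest count in each case without control 2.

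**Figure D4:**
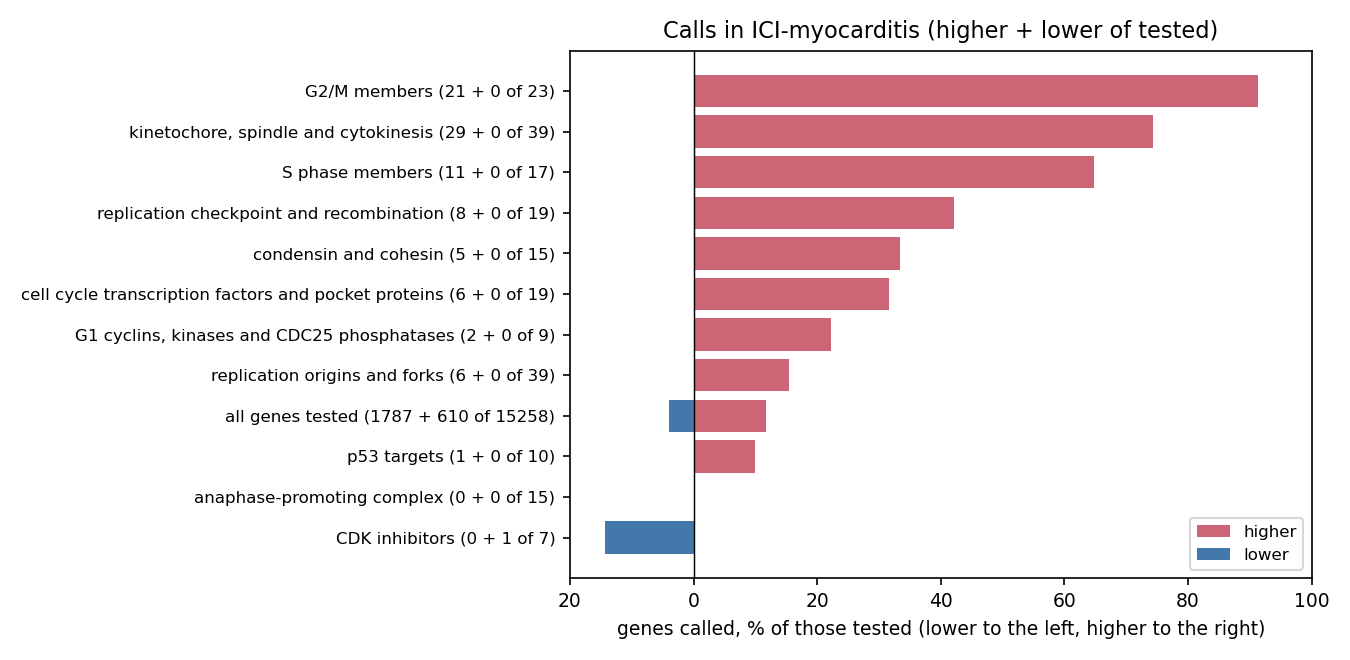
Share of tested genes called higher (red, to the right) or lower (blue, to the left) in ICI-myocarditis at an adjusted p under 0.05, for the 2 member groups, the 9 companion lists and all 15258 genes tested. Labels give the number higher, the number lower and the number tested. G2/M members (21 of 23) and kinetochore, spindle and cytokinesis genes (29 of 39) have the longest bars.

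The promoter motifs shown above were searched in RefSeq windows of 300 bases, from 250 before to 50 after the start, which matched 33 of the 40 members. CHR matches stood in 15 of 19 G2/M genes and 2 of 14 S phase genes, Mcm2 and Mcm7, against 21.66% of all genes with a window and 16.57% of those tested. All 15 G2/M genes with a CHR match also held a CCAAT box, a pair present in 8.614% of all genes. E2F matches stood in 8 of 14 S phase genes (Cdc6, Cdt1, Mcm3, Mcm5, Mcm6, Mcm7, Rrm1 and Uhrf1) and 3 of 19 G2/M genes (Ccnb1, Cdk1 and Mki67), against 7.789% of all genes and 13.44% of those tested. In Ccnb1 the E2F match overlaps a CCAAT box. CCAAT boxes, with or without another motif, stood in 17 of 19 G2/M and 9 of 14 S phase genes and in 41.06% of all genes. Among the other genes that rose, 20.93% held a CHR match and 9.42% an E2F match. The members were not chosen by sequence, but the split between phases follows known roles, and a match is a string in a window and no measured binding. Cenpf held both a CHR match and CCAAT boxes, as did Top2a, Kif11 and Ccnb2, which rose. The 4 G2/M genes with no match to the CHR strings searched in their windows, Birc5, Ccnb1, Cenpe and Nusap1, also rose. Ccnb1 had the highest log2 fold change of the members. Any part of these motifs in the changes was not tested.

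**Figure D5:**
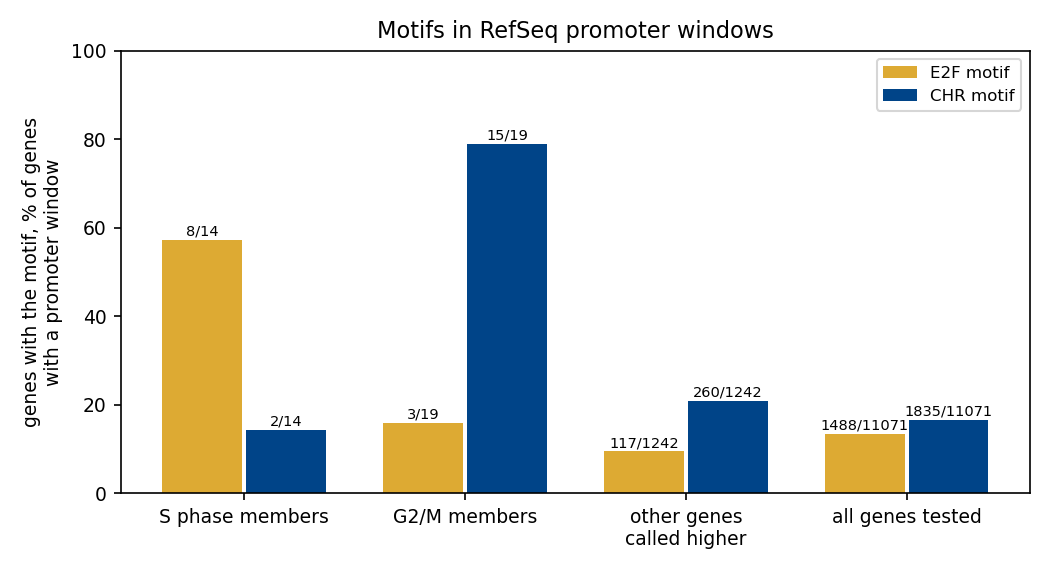
Share of genes (vertical axis, % of genes with a RefSeq promoter window) that hold an E2F match (yellow) or a CHR match (blue), for S phase members, G2/M members, the other genes called higher and all genes tested, with the counts above each bar. CHR matches stand in 15 of 19 G2/M members and E2F matches in 8 of 14 S phase members.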

How the data were processed

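Bulk total RNA of 7 mouse heart libraries (stranded kit, paired-end) was used. The submitters' processing notes name STAR 2.7.3, GRCm38 and mm10, while the counting tool, its strand setting and the normalization are not given in the sources used here. The deposited table holds a signal per gene, which per its values is read counts divided by a size factor. All values came out as whole reads within 0.1, which for control 1, with a step of 1.01, is a weaker sign. Other columns of the authors' deposited table hold their log2 fold changes, their standard errors and a test statistic (a score) and p-values, and in it 35 of the 40 members were higher at an adjusted p under 0.05 (12.9% of 16882 genes). 27 rows carry dates in place of gene names and stayed in the fit.

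The main fit was limma 3.58.1 (R 4.3.3; trend and robust empirical Bayes) on log2(normalized count + 1) over the 15258 genes that reached 10 normalized counts in 3 or more libraries, with Benjamini-Hochberg adjustment over all of them. Intervals are 95%. Alternatives were pseudocounts of 0.5 and 5, other filters, TMM and library total scaling, plain empirical Bayes, a replicate block and leaving out each library. Further alternatives, on the recovered reads, were edgeR 4.0.16, DESeq2 1.42.0 and limma-voom with library quality weights. The last is written limma-voom throughout. Tested on simulated data of this comparison with 200 changed genes (15153 tested), limma recovered 10% of log2 changes of 1 and 78% of those of 2, with 3.33% of calls wrong, and DESeq2 had 22.97% wrong.

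The members, the companion lists and the marker lists were chosen with earlier results of these data known. Every member could be named. Of each companion list the 3 genes with the lowest p were named, and the gene with the highest p, which the rule also allowed, was left out after its value was seen. Promoter windows are RefSeq's (GRCm38.p6), and exon lengths and overlaps are from GENCODE M21.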

Additional observations from a re-analysis of the deposited data

Results flagged for a closer look

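Among the 4 controls, control 2 lay far above the other 3 for Cdt1, Mcm5, Tpx2 and the mean log2 level of the G2/M members. On the log2(normalized count + 1) scale, its gap to the next control made up 0.888, 0.874, 0.944 and 0.917 of the controls' whole range. Each was above Dixon's critical value for 4 samples. These were 4 of 52 quantities examined, where chance flags about 1 in 20, and the quantities share the same 4 libraries and are not independent. Cdt1 and Tpx2 stood at 142 and 213 normalized counts in control 2, against at most 80.7 and 62.5 in the other controls, and Mcm5 at 451 against at most 169. No label sets control 2 apart from the other controls.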

How the results depend on the processing

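Median log2 fold changes of both phases stayed positive in all 18 alternative fits, from 1.17 to 1.595 for S phase and 1.80 to 2.46 for G2/M members, and 14 of the 32 calls held in each of them: Cdt1, Rrm2, Ccna2, Ccnb1, Ccnb2, Cdk1, Aurka, Aurkb, Bub1b, Kif20a, Cdc20, Ube2c, Top2a and Birc5. With 1 library left out, the number of members called higher ran from 15 to 37, of S phase members from 3 to 15, of G2/M members from 12 to 22, of companion genes from 13 to 86, of all genes called from 1080 to 3345 and of all genes called higher from 914 to 2253. Such fits have fewer samples. Other tools gave 25 (edgeR), 35 (DESeq2) and 37 (limma-voom) members, and library total scaling, which shifted the median of all genes by 0.16, gave 25. limma-voom called 4003 of all genes against 2397, and companion genes numbered 35 with edgeR and 90 with limma-voom against 58, and the cause was not tested. The value of Cenpf changed sign, never passing the test, to 0.057 with DESeq2, 0.042 with edgeR, 0.12 with library total scaling, 0.29 with limma-voom and 0.27 without ICI-myocarditis 3, and was -0.38 without ICI-myocarditis 2. The groups share replicate numbers. Same-numbered libraries deviated from their group means with correlations of -0.27, -0.21 and -0.08 over genes, and other pairs with -0.48 to 0.45. These values cannot decide whether the numbers pair libraries, since deviations from the mean of so small a group depend on each other. With the replicate number as a block, 27 members (8 S phase, 19 G2/M) and 42 companion genes were called. Control 4 has no partner and does not enter that comparison. The lowest value of any member was 11.1 normalized counts (Ccnb1 in control 1), and whether depth limits the members' calls was not tested.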
